A study of Caenorhabditis elegans with 30 samples.

Results

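Central carbon metabolism was followed in nematodes exposed to thymidine analogues through 44 genes of *Caenorhabditis elegans*, taken from 46726 genes in the count files by matching a fixed list of gene names to the gene identifiers. Of these, 19 encode enzymes of glycolysis with lactate dehydrogenase, 3 belong to gluconeogenesis, 4 to the pyruvate dehydrogenase complex and 18 to the TCA cycle with its cytosolic side enzymes. All 44 had enough counts to be tested, among 16048 genes in all.

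Whole worms were sequenced after 24h or 72h on plates without an addition (Unexposed), with the solvent DMSO, or with 1 of the analogues AZT, d4T and FLT, each at 100μM, in 10 groups of 3 biological replicates. All animals were grown from synchronised L1 larvae on *Escherichia coli* OP50 and moved to these plates at L4, the last larval stage before adulthood. Adults were sieved free of progeny and food at harvest, with daily plate changes in the longer exposure, and the labels give no strain. The 3 compounds are analogues of thymidine used against HIV: AZT bears an azido group and FLT a fluorine in place of the sugar hydroxyl, while d4T lacks that hydroxyl and has a double bond in the ring.

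Glycolysis splits glucose into pyruvate in the cytosol, and gluconeogenesis runs the same path backwards with its own enzymes at the irreversible steps. The pyruvate dehydrogenase complex turns pyruvate into acetyl-CoA inside mitochondria, and the TCA cycle oxidises this to carbon dioxide and passes electrons to the respiratory chain. Several steps have more than 1 gene in *C. elegans*, and the copies differ in the tissue or stage where they are active.

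Total counts on genes, in units of 10⁶, were 11.3 to 30.6 per library (median 24.0), and the 44 genes took 0.796 to 1.19% of them (median 0.932%). A gene is said to rise or fall where edgeR's quasi-likelihood test, fitted to all 30 libraries, gave an adjusted p under 0.01 over the 16048 genes. Levels are CPM (counts per 10⁶ counts) with TMM scaling, and changes are log2 fold changes with their standard error (SE). By correlation replicate 2 of d4T at 24h stood furthest apart. It correlated with the other libraries of its group at 0.914 and 0.933 over log2 levels, and at 0.987 with a library of AZT at 24h, so results with d4T at 24h are also given without it. The fit shares a spread per gene over all 30 libraries, so this library also enters the tests of other groups. For those it was absent only where the compared groups were fitted alone. Replicate 3 of FLT at 24h correlated at 0.982 with a library of d4T at 24h and at 0.961 and 0.977 with its own group. Replicate 1 of Unexposed at 24h was also slightly closer to a library of AZT, at 0.983, than to its own group, at up to 0.982. Replicate 1 of DMSO at 24h correlated with its group at 0.964 and 0.970. Each exposure had a lane of its own, FLT on another flow cell, that held its 24h and its 72h libraries. A lane effect and an exposure effect at 1 time therefore cannot be told apart. The counting discards reads that match more than 1 place, and the strand setting is not given in the sources used here. Such reads made up 7.53 to 23.6% of a library (median 11.5%), and rRNA genes took 0.259 to 5.78% of the gene counts (median 0.675%). Both shares were highest in replicate 1 of AZT at 72h, followed by replicate 1 of d4T at 24h at 22.9% and 4.99%. The gene pairs *gpd-1* with *gpd-4* and *gpd-2* with *gpd-3* are near copies and their separate values are uncertain, and 14 of the 44 genes overlap an exon of a gene on the other strand.

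In unexposed nematodes at 24h, levels per length ran from 355 ± 15.03 CPM per kb (SD, n = 3) for the aldolase gene *aldo-2* to 0.08 ± 0.04 for *pfk-1.2*, a second phosphofructokinase gene. *mdh-1*, which encodes the cytosolic malate dehydrogenase, followed *aldo-2* at 347 ± 29.9 CPM per kb, a gap smaller than the spread of either. Citrate synthase *cts-1* was next at 281 ± 16.8 and the E1 alpha subunit *pdha-1* at 269 ± 11.4 CPM per kb. The lowest genes above *pfk-1.2* were *pfk-1.1* at 14.6 ± 0.21, *idh-2* at 19.6 ± 1.78 and the second aldolase gene, *aldo-1*, at 22.1 ± 5.08 CPM per kb. The 2 aldolase genes thus lay at opposite ends of the order of levels.

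35 of the 44 genes rose or fell against DMSO with at least 1 analogue at 1 time, and the other 9 did not pass the test in any of the 6 comparisons. These 9 were *gpi-1*, *pfk-1.1*, *pfk-1.2*, *fbp-1*, *tpi-1*, *ipgm-1*, *idh-2*, *idhb-1* and *dlst-1*, which include both phosphofructokinase genes, triosephosphate isomerase and phosphoglycerate mutase. The share of all genes called in at least 1 of the 6 comparisons was not worked out, and AZT at 72h alone called 48.9% of all genes. The 35 can therefore not be read as particular to these pathways. AZT at 24h lowered 8 genes and raised 0, where 10.2% of all genes tested were called (1.07% higher and 9.15% lower). This count was 1, *gpd-2*, without replicate 1 or 2 of DMSO or replicate 1 or 2 of AZT, and 4 without replicate 3 of AZT. The comparison of d4T with DMSO at 24h called 0 genes in edgeR and 0 in DESeq2, where 6.31% of all genes were called (4.07% higher and 2.24% lower). Before adjustment, 3 genes were higher and 1 was lower with p under 0.05. FLT at 24h raised 1 gene and lowered 11, where 15.1% were called (5.74% higher and 9.39% lower).

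At 72h AZT raised 7 genes and lowered 14, where 48.9% of all genes were called (27.2% higher and 21.6% lower). With d4T 0 rose and 9 fell, where 11.7% were called (5.82% higher and 5.86% lower), and with FLT 3 rose and 5 fell, where 8.06% were called (4.52% higher and 3.54% lower). The 9 falls with d4T became 2 to 5 without any 1 of the 6 libraries compared. DESeq2 and a fit of the compared groups alone each called more than 9 genes with d4T, so this count depended on the model in both directions. The median log2 fold change of the 44 genes was -0.28 with AZT, -0.40 with d4T and -0.07 with FLT at 72h, beside 0.36, 0.17 and 0.01 over all genes tested. At 24h it was 0.07 with AZT, 0.09 with d4T and -0.25 with FLT, beside -0.02, 0.02 and 0.15 over all genes. The share called with AZT at 72h, 21 of 44, thus lay near that of all genes. The direction split of AZT at 72h depended on the scaling: 15 rose and 7 fell with library totals, which put the median of all genes at 0.67, and 4 rose and 18 fell with relative log expression, which put it at 0.24. With library totals d4T at 72h raised 2 and lowered 2, FLT at 72h raised 4 and lowered 3, and the median of all genes stood at 0.44 and 0.14. No called gene changed sign under another scaling. The choice of control mattered more. Of the 58 calls against DMSO, 7 were also made in the same direction against unexposed nematodes, 40 missed the threshold there and 11 changed sign. The 6 that held under every alternative run, with either control, were *pdhb-1* and *dlat-1* with FLT at 24h, *gpd-3* and *aco-1* with AZT at 72h and *aldo-1* and *ldh-1* with FLT at 72h.

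**Figure D1:**
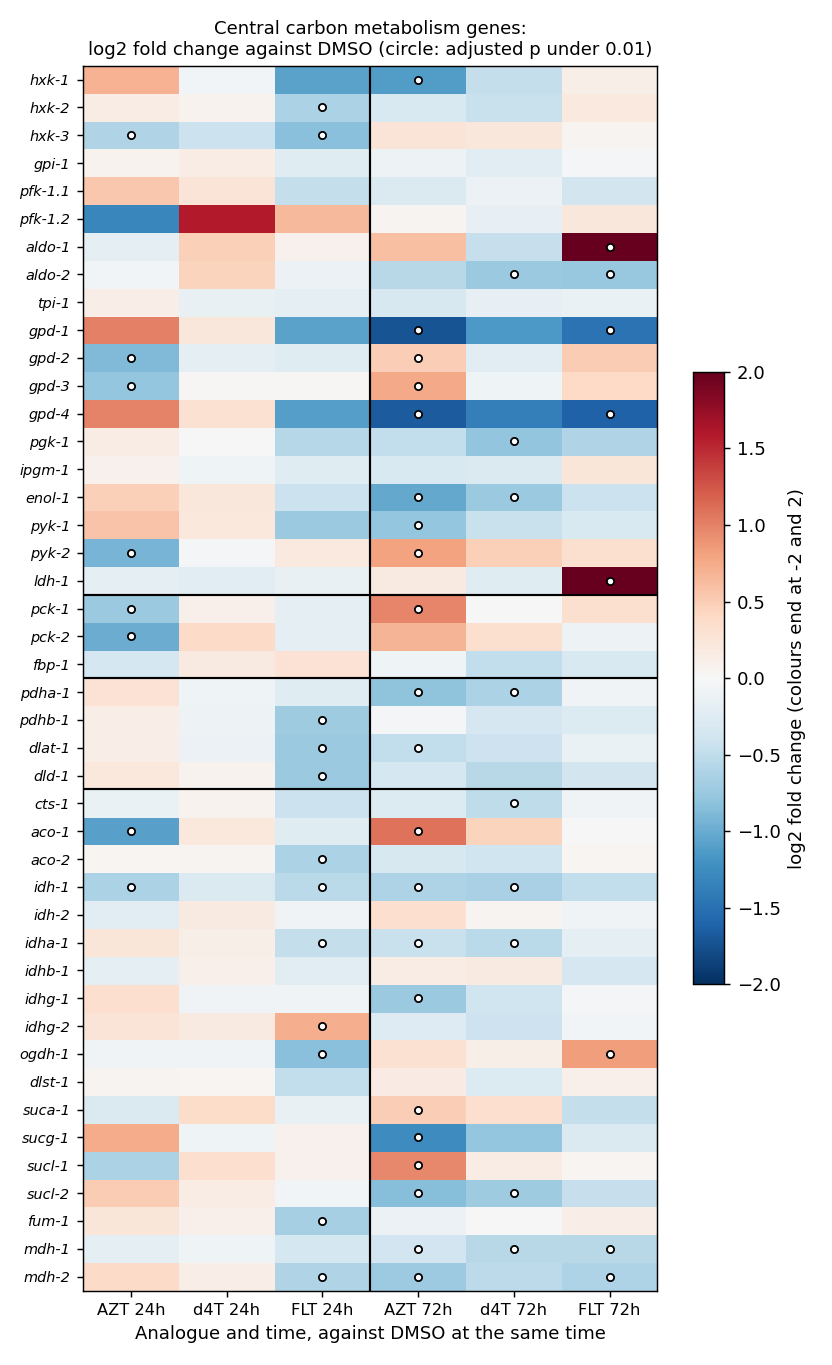
Log2 fold change against DMSO at the same time for the 44 genes (rows: glycolysis, gluconeogenesis, pyruvate dehydrogenase, TCA cycle, separated by lines) with each analogue at 24h and 72h (columns). Circles mark an adjusted p under 0.01: 8 and 21 genes with AZT at 24h and 72h, 0 and 9 with d4T, 12 and 8 with FLT, and colours end at -2 and 2.

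The largest changes of any of the 44 genes against DMSO came with FLT at 72h, in *aldo-1* and *ldh-1*. *aldo-1* (WBGene00011474, chromosome III, 13563346 to 13564937 in WBcel235), an aldolase that splits fructose bisphosphate, stood at 180.0, 179 and 264 CPM in the 3 FLT libraries and at 20.9, 18.2 and 18.8 CPM with DMSO. *ldh-1* (WBGene00002262, chromosome II, 11724204 to 11726533), the lactate dehydrogenase that turns pyruvate into lactate, stood at 197, 208 and 281 CPM against 59.3, 54.5 and 45.9 CPM. The FLT libraries lay far above every other library of either time for both genes, as the plot of these levels shows. The rise was 10.8-fold for *aldo-1* (log2 3.43, SE 0.22, adjusted p = 1.22e-10, edgeR) and 4.30-fold for *ldh-1* (log2 2.104, SE 0.17, adjusted p = 4.93e-09, edgeR).

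Against unexposed nematodes the log2 changes were 3.83 and 2.31. At 24h *aldo-1* stood at 33.9, 29.7 and 28.8 CPM with FLT and at 30.2, 29.2 and 27.7 CPM with DMSO. *ldh-1* stood at 83.1, 56.2 and 60.9 CPM with FLT at 24h, which overlapped the 76.9, 77.7 and 66.4 CPM of DMSO. The FLT effect at 72h exceeded that at 24h by 3.34 (SE 0.29) for *aldo-1* and by 2.25 (SE 0.23) for *ldh-1*, with adjusted p = 4.65e-08 and 4.87e-07 in edgeR. Against DMSO the other aldolase gene went the other way. *aldo-2* stood at 499.8, 492 and 674 CPM with FLT at 72h and at 993, 935 and 877 CPM with DMSO, a fall of 0.75 on the log2 scale (SE 0.19, adjusted p = 0.00787, edgeR). The groups did not overlap, but this call was lost in 5 of the 6 fits that left out a library, all but the one without FLT replicate 3. Unexposed nematodes at 72h stood at 573, 594 and 542 CPM for *aldo-2*, within the range of the FLT libraries. The change against them was -0.036 (adjusted p = 0.92, edgeR), so the fall was seen only against DMSO. Per length, the ratio of *aldo-1* to *aldo-2* was 0.391, 0.394 and 0.424 with FLT at 72h and 0.0228, 0.0211 and 0.0232 with DMSO, and the highest in any other group was 0.0758.

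The third gene that FLT raised at 72h was *ogdh-1*, the E1 subunit of the 2-oxoglutarate dehydrogenase of the TCA cycle. It stood at 274, 225 and 359 CPM with FLT and at 149, 174 and 159.9 CPM with DMSO (log2 0.83, SE 0.15, adjusted p = 0.000346, edgeR). The groups did not overlap, but the call was lost without FLT replicate 3, the highest library, and against unexposed nematodes, at 238, 249.9 and 198 CPM, the change was 0.32 with an adjusted p = 0.123 in edgeR. At 24h the same gene fell with FLT, to 216, 208 and 184 CPM from 362, 391 and 331 CPM with DMSO (log2 -0.84, SE 0.15, adjusted p = 0.000286, edgeR). The effect of FLT on *ogdh-1* thus differed between the times, by 1.67 (SE 0.21, adjusted p = 6.22e-06, edgeR). The DMSO libraries themselves fell between the times by 1.17 (SE 0.15, adjusted p = 8.72e-07, edgeR), whereas each FLT library at 72h lay above all 3 at 24h.

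**Figure D2:**
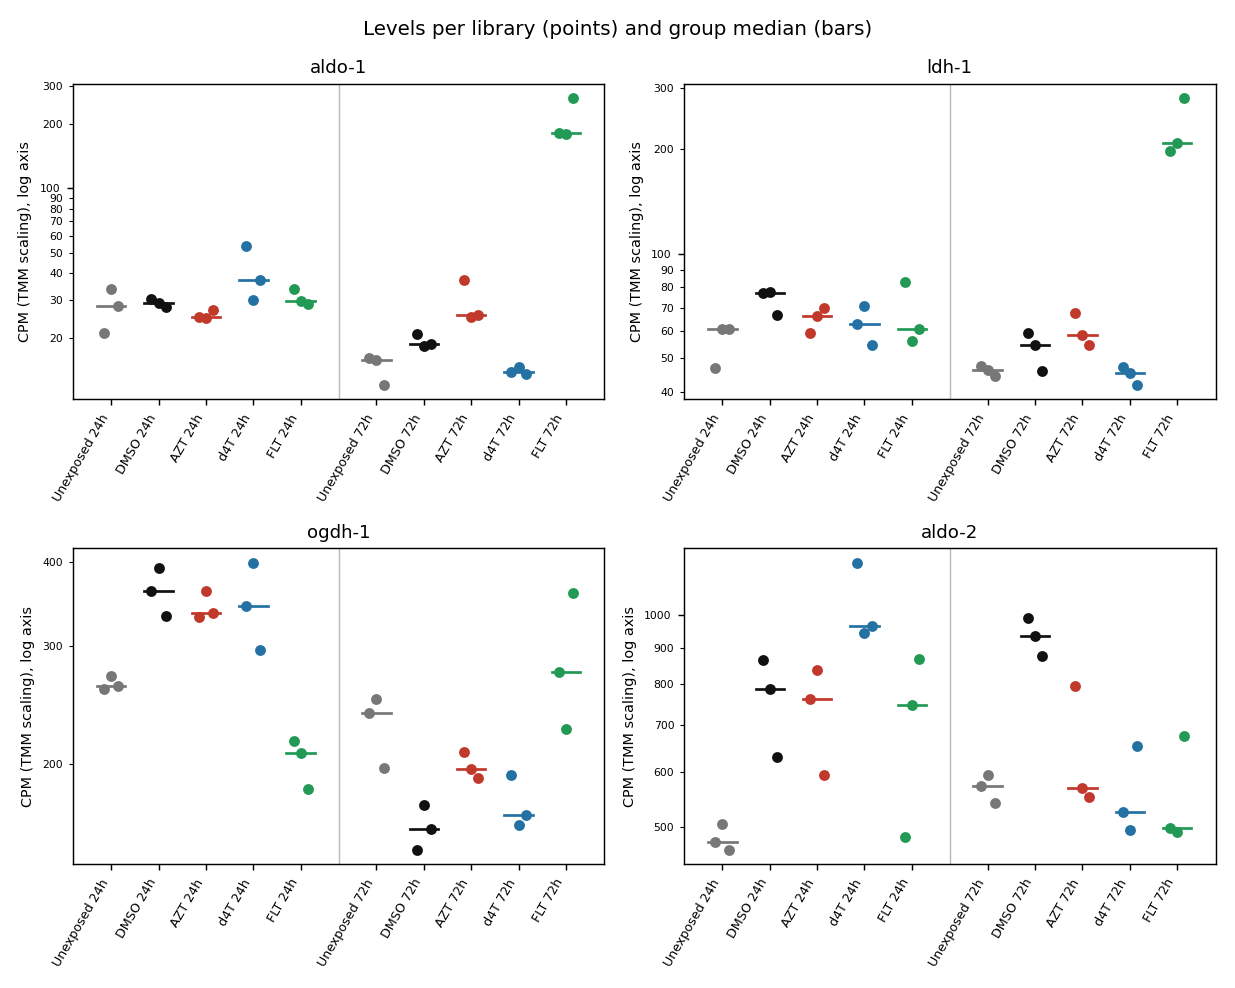
CPM of *aldo-1*, *ldh-1*, *ogdh-1* and *aldo-2* in each library (points, log axis) with the group median (bars), by exposure and time. The 3 FLT libraries at 72h lie between 179 and 264 CPM for *aldo-1* and between 197 and 281 CPM for *ldh-1*, above all other libraries, and for *aldo-2* they lie below the DMSO libraries of 72h.

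Body wall muscle markers moved with FLT at 72h as well: 4 of 11 rose and 0 fell, where 4.52% of all genes rose, and their summed level was 1139 to 1350 CPM against 798 to 947 CPM with DMSO. With AZT at 72h the same sum was 1291 to 1472 CPM and 9 of 11 rose, where 27.2% of all genes rose, and *aldo-1* stood at 37.1, 24.9 and 25.5 CPM and *ldh-1* at 67.5, 58.3 and 54.6 CPM. *ldh-1* thus overlapped DMSO and *aldo-1* lay just above it with AZT, both below FLT. The part of muscle in these results was not tested. The samples are whole animals, in which fewer cells of a type and less RNA per cell cannot be told apart.

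Glyceraldehyde-3-phosphate dehydrogenase, which makes the NADH of glycolysis, showed opposed pairs of genes. In *C. elegans*, *gpd-1* and *gpd-4* are known for expression in embryos and *gpd-2* and *gpd-3* for expression after hatching. *gpd-1* (WBGene00001683, chromosome II, 10394129 to 10395349) stood at 268, 236 and 235.2 CPM with DMSO at 72h. It stood at 76.6, 66.6 and 80.7 CPM with AZT (log2 -1.72, SE 0.37, adjusted p = 0.000386, edgeR) and at 68.7, 76.6 and 121 CPM with FLT (log2 -1.47, SE 0.37, adjusted p = 0.0076, edgeR). *gpd-4* (WBGene00001686, chromosome II, 10171268 to 10172498) stood at 129.6, 109 and 109.8 CPM with DMSO, at 37.4, 33.9 and 38.6 CPM with AZT and at 28.7, 33.2 and 51.1 CPM with FLT. All 6 exposed libraries lay below all 3 DMSO libraries for both genes, and *gpd-4* fell by 1.66 (SE 0.38) with AZT and by 1.62 (SE 0.39) with FLT. The calls with AZT held under every alternative except unexposed nematodes as the control, whereas those with FLT were also lost in 5 of the 6 fits without 1 library, all but the one without FLT replicate 3.

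d4T at 72h gave 110.4, 101 and 123 CPM for *gpd-1* and 40.97, 42.3 and 51.7 CPM for *gpd-4*, also below all DMSO libraries. With log2 changes of -1.14 (SE 0.37, adjusted p = 0.025) and -1.37 (SE 0.38, adjusted p = 0.011) in edgeR, neither passed the test. Unexposed nematodes at 72h stood at 122, 130.1 and 104 CPM for *gpd-1*, close to the d4T libraries. The DMSO libraries were the highest at 72h for both genes.

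*gpd-3* (WBGene00001685, chromosome X, 3112091 to 3113341) and its neighbour *gpd-2* (WBGene00001684, chromosome X, 3113443 to 3114689) moved the other way. *gpd-3* stood at 267, 228 and 186 CPM with AZT at 72h and at 151, 133 and 118 CPM with DMSO, with no overlap (log2 0.76, SE 0.17, adjusted p = 0.000464, edgeR). *gpd-2* rose by 0.49 (SE 0.15, adjusted p = 0.00734, edgeR), from 125, 112 and 101 to 181, 157 and 138 CPM. At 24h both fell with AZT: *gpd-2* stood at 122, 121 and 129 CPM against 247, 235.2 and 206 CPM with DMSO (log2 -0.89, SE 0.15, adjusted p = 0.000396, edgeR). *gpd-3* stood at 154, 159 and 177 CPM against 304, 277 and 255 CPM (log2 -0.77, SE 0.17, adjusted p = 0.00243, edgeR). Here the unexposed libraries, at 116, 122 and 114 CPM for *gpd-2*, lay with AZT and not with DMSO.

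**Figure D3:**
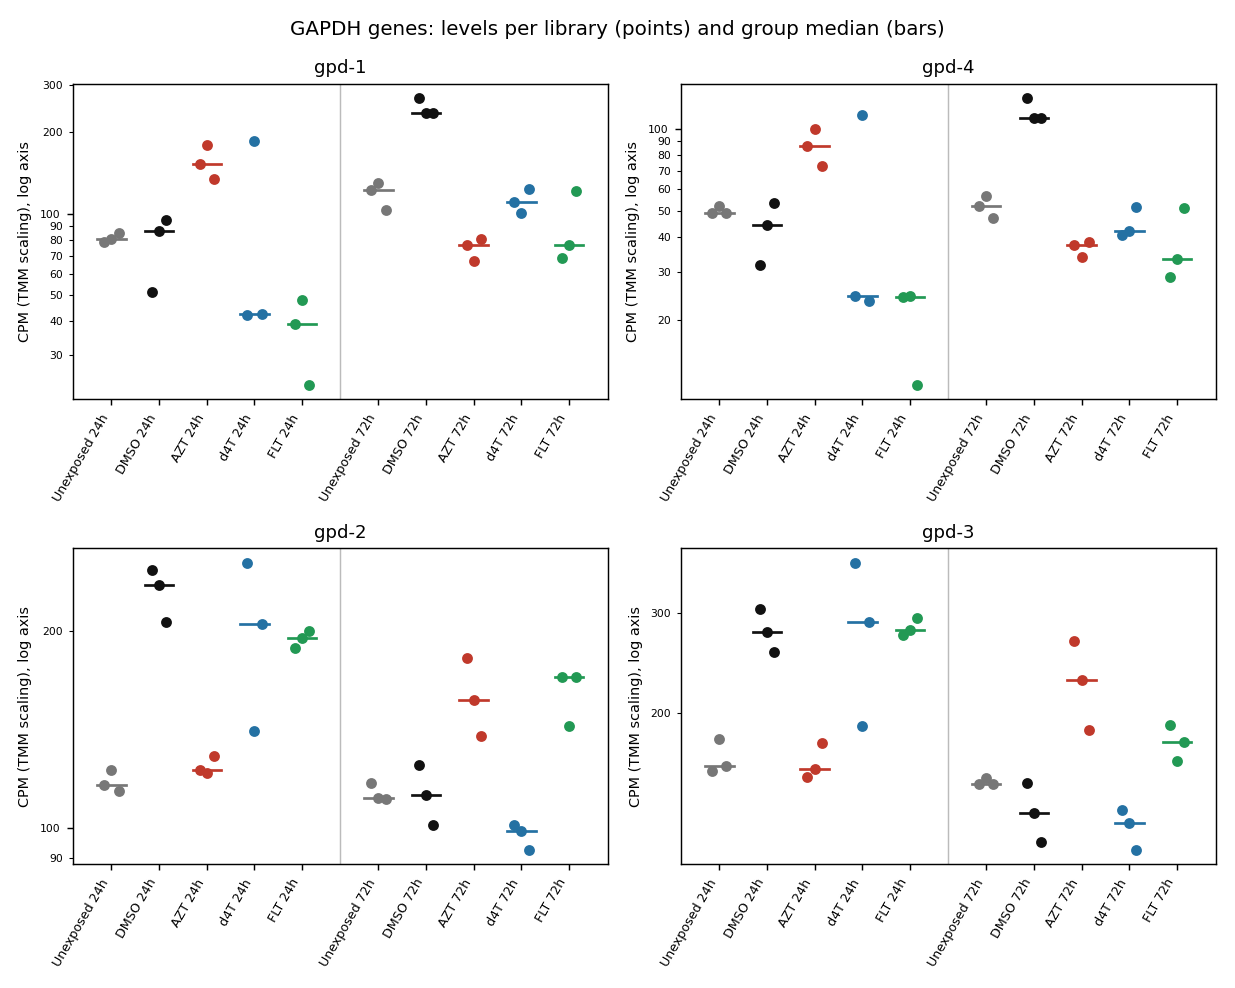
CPM of the 4 glyceraldehyde-3-phosphate dehydrogenase genes in each library (points, log axis) with the group median (bars). *gpd-1* and *gpd-4* are lower with AZT and FLT than with DMSO at 72h, *gpd-2* and *gpd-3* are lower with AZT than with DMSO at 24h, and replicate 2 of d4T at 24h lies apart from its group in all 4 genes.

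Expressed as a ratio per length, *gpd-2* and *gpd-3* together over *gpd-1* and *gpd-4* together, the groups separated further. The ratio was 0.676, 0.694 and 0.620 with DMSO at 72h, 3.84, 3.73 and 2.65 with AZT and 3.60, 2.73 and 1.97 with FLT. At 24h it was 6.48, 3.82 and 3.04 with DMSO and 1.13, 0.980 and 1.43 with AZT. With d4T at 24h it was 9.07 and 7.30 in replicates 1 and 3 and 1.08 in replicate 2, within the range of the AZT libraries. The order of DMSO and AZT was thus opposite at the 2 times, and within each time the libraries did not overlap.

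Germline and oocyte markers, a list of 20 genes, also differed between these groups. Their summed level was 12890 to 13577 CPM with DMSO at 72h, 4408 to 6208 CPM with AZT, 8815 to 9808 CPM with d4T and 9391 to 14440 CPM with FLT. Of the 20 genes AZT at 72h raised 0 and lowered 15, where 21.6% of all genes fell, and AZT at 24h raised 0 and lowered 0. At 24h the sum was 6309 to 9477 CPM with DMSO, 13133 to 15151 CPM with AZT and 2035 to 4797 CPM with FLT, and *gpd-1* stood at 51.2, 86.4 and 94.4 CPM, 152, 179 and 135 CPM, and 39.2, 47.8 and 23.3 CPM in these groups. In d4T at 24h the sum was 16695 CPM in replicate 2, where *gpd-1* was 186 CPM, and 4661 and 4844 CPM in the other libraries, where *gpd-1* was 42.2 and 42.6 CPM. With FLT at 72h 0 of the 20 markers rose or fell. The part of the germline in these results was not tested.

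Hexokinase, enolase and pyruvate kinase make the first and the last steps of glycolysis. *enol-1*, the enolase, fell with AZT at 72h from 834, 812 and 747 to 430.1, 372 and 374 CPM (log2 -1.03, SE 0.20, adjusted p = 0.000114, edgeR), a call that was lost with unexposed nematodes, at 539, 581 and 526 CPM, as the control. With d4T at 72h it also fell (log2 -0.74, SE 0.20, adjusted p = 0.00802, edgeR), to 475, 433 and 522 CPM. The hexokinase gene *hxk-1* fell with AZT at 72h by 1.12 (SE 0.31), while *hxk-3*, another hexokinase gene, fell at 24h with AZT and FLT. *hxk-3* stood at 133, 127 and 91.2 CPM with DMSO at 24h, at 73.5, 69.7 and 87.6 CPM with AZT (log2 -0.61, SE 0.14, adjusted p = 0.00368, edgeR) and at 67.3, 58.4 and 70.7 CPM with FLT (log2 -0.84, SE 0.14, adjusted p = 0.000186, edgeR). Unexposed nematodes stood at 68.2, 67.8 and 68.5 CPM for *hxk-3*, close to the exposed libraries and below all 3 DMSO libraries.

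The 2 pyruvate kinase genes moved in opposite directions with AZT against DMSO at 72h. *pyk-1* fell by 0.77 (SE 0.21, adjusted p = 0.00298, edgeR) at 72h, from 400.2, 442 and 439 to 259.7, 241 and 250.5 CPM. *pyk-2* rose by 0.81 (SE 0.24, adjusted p = 0.00581, edgeR) at 72h, from 39.5, 40.9 and 41.4 to 81.9, 66.1 and 65.3 CPM, and fell by 0.92 (SE 0.24, adjusted p = 0.00856, edgeR) at 24h. Against unexposed nematodes neither gene passed the test with AZT at either time. With that control *pyk-1* stood at -0.50 and *pyk-2* at 0.23 at 72h, and they stood at 0.66 and -0.37 at 24h. The ratio of *pyk-2* to *pyk-1* per length was 0.225, 0.211 and 0.216 with DMSO at 72h and 0.720, 0.626 and 0.595 with AZT. It was 1.32, 0.903 and 0.673 with DMSO at 24h and 0.315, 0.289 and 0.395 with AZT. In unexposed nematodes it was 0.744, 0.659 and 0.626 at 24h and 0.364, 0.356 and 0.461 at 72h. With FLT at 72h the ratio was 0.420, 0.381 and 0.239, above DMSO in every library.

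With d4T at 72h the calls in glycolysis were 3 falls, in *pgk-1*, *aldo-2* and *enol-1*. *pgk-1*, the phosphoglycerate kinase that makes ATP, stood at 90.2, 78.5 and 87.0 CPM against 152, 144 and 146 CPM with DMSO (log2 -0.79, SE 0.17, adjusted p = 0.00134, edgeR). The levels with d4T lay below all DMSO libraries, and also below the 104, 109.9 and 91.2 CPM of unexposed nematodes. *aldo-2* fell by 0.74 (SE 0.19) with d4T, from the DMSO levels above to 527, 497 and 652 CPM, beside 573, 594 and 542 CPM without exposure.

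Phosphoenolpyruvate carboxykinase, the first committed step of gluconeogenesis, was lower than DMSO with AZT at 24h and higher at 72h. *pck-1* (WBGene00021043, chromosome III, 62888 to 66260) stood at 186, 137 and 111 CPM with AZT at 72h and at 71.3, 80.6 and 67.9 CPM with DMSO (log2 0.98, SE 0.19, adjusted p = 0.000107, edgeR). At 24h it stood at 80.3, 79.2 and 86.8 CPM with AZT and at 139, 154 and 118.8 CPM with DMSO (log2 -0.74, SE 0.19, adjusted p = 0.00671, edgeR). *pck-2*, the more abundant of both per length, fell by 0.99 (SE 0.24) at 24h. It stood at 860.1, 605 and 529 CPM with AZT at 72h against 380.2, 463 and 403 CPM, a difference of 0.68 (SE 0.24) that missed the threshold at an adjusted p = 0.016 in edgeR. *fbp-1*, the fructose bisphosphatase, did not pass the test against DMSO with any analogue.

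Cytosolic aconitase *aco-1* (WBGene00000040, chromosome X, 11339874 to 11343327), which converts citrate outside mitochondria and in other animals doubles as an iron sensor, had the same pattern. It stood at 132, 139.8 and 153 CPM with AZT at 24h against 368, 309.8 and 225 CPM with DMSO (log2 -1.09, SE 0.24, adjusted p = 0.00274, edgeR). At 72h it stood at 226, 179 and 157 CPM with AZT against 89.04, 92.2 and 83.1 CPM (log2 1.09, SE 0.24, adjusted p = 0.000501, edgeR). The groups did not overlap at either time, and the effect of AZT differed between the times by 2.18, beside 1.72 for *pck-1* and 1.66 for *pck-2*. *aco-1* was also higher with AZT than in unexposed nematodes at 72h, by 0.90 (adjusted p = 0.00417, edgeR). At 24h AZT stood at 0.22 for *aco-1*, 0.083 for *pck-2* and -0.056 for *pck-1* against unexposed nematodes, and none passed the test. The falls at 24h were thus seen only against DMSO.

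**Figure D4:**
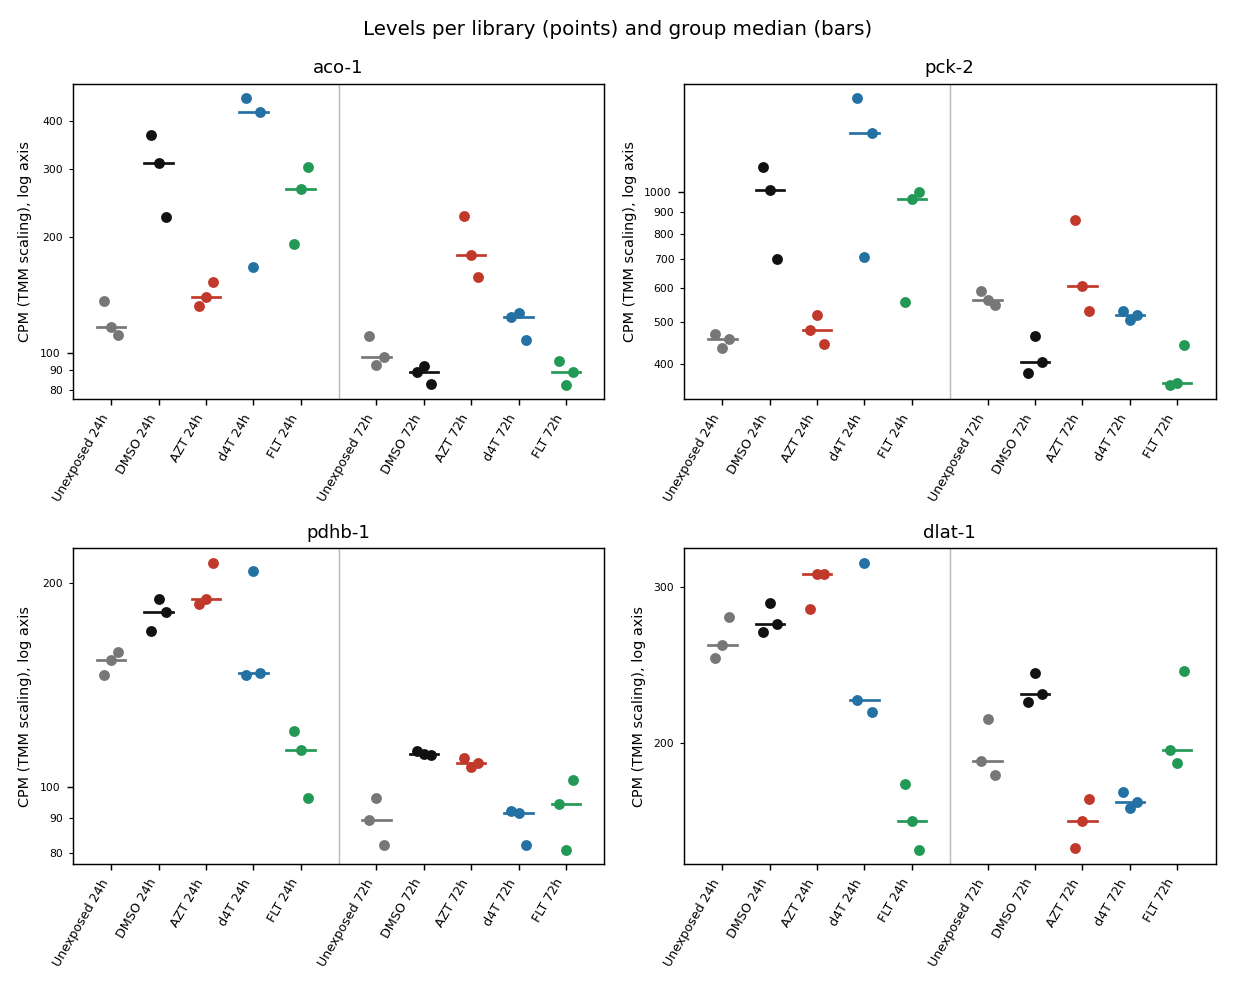
CPM of *aco-1*, *pck-2*, *pdhb-1* and *dlat-1* in each library (points, log axis) with the group median (bars). *aco-1* and *pck-2* with DMSO stand above Unexposed and AZT at 24h, and *pdhb-1* and *dlat-1* with FLT at 24h stand below every DMSO, AZT and Unexposed library of that time.

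Intestinal markers, a list of 9 genes with the vitellogenins, moved in the same direction as *aco-1* and the carboxykinase genes. Their summed level was 66172 to 91414 CPM with DMSO and 34080 to 41951 CPM with AZT at 24h, where 0 of 9 rose and 6 fell, beside 9.15% of all genes that fell. At 72h it was 10986 to 14054 CPM with DMSO and 39035 to 55648 CPM with AZT, where 7 of 9 rose and 0 fell, beside 27.2% of all genes that rose. Unexposed nematodes stood at 34381 to 42716 CPM at 24h and at 26143 to 34331 CPM at 72h. Markers of epidermis and moult, with 6 of 9 tested, and of neurons, with 6 of 8, also rose with AZT at 72h, and *bli-1* of the first list was at 0 in all libraries. The part of these tissues in the results was not tested.

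The pyruvate dehydrogenase complex, the gate from glycolysis to the TCA cycle, was lower with FLT at 24h in 3 of its 4 genes, where 9.39% of all genes fell. *pdhb-1* (WBGene00015413, chromosome IV, 3399672 to 3403908), the E1 beta subunit, stood at 121, 114 and 96.5 CPM with FLT against 169.7, 189 and 181 CPM with DMSO (log2 -0.70, SE 0.14, adjusted p = 0.000527, edgeR). *dlat-1* (WBGene00009082, chromosome V, 14445323 to 14447290), the E2 acetyltransferase, stood at 179.9, 163 and 152 CPM against 267, 288 and 273 CPM (log2 -0.74, SE 0.14, adjusted p = 0.000363, edgeR). The FLT libraries of both genes lay below all libraries of DMSO, AZT and Unexposed at 24h, and both genes also fell against unexposed nematodes, by 0.47 and 0.67. *dld-1*, the E3 subunit that the 2-oxoglutarate dehydrogenase shares, fell by 0.75 (SE 0.16) against DMSO, while *pdha-1*, the E1 alpha subunit, stood at -0.24 (SE 0.17) and did not pass the test.

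At 72h *pdha-1* was the subunit that fell most. It stood at 212, 246 and 268 CPM with AZT against 418, 434 and 421 CPM with DMSO (log2 -0.81, SE 0.17, adjusted p = 0.000217, edgeR) and fell by 0.64 (SE 0.17) with d4T, to 271, 269 and 279 CPM. Unexposed nematodes stood at 261, 307 and 290.2 CPM, also below all DMSO libraries. *dlat-1* fell with AZT by 0.50 (SE 0.14), and *pdhb-1* stood at -0.04 (SE 0.13). With FLT at 72h 0 of the 4 genes passed the test, and their median change was -0.21.

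Around the TCA cycle, FLT at 24h lowered 6 of 18 genes and raised 1, where 9.39% of all genes fell and 5.74% rose. Besides *ogdh-1* the falls were *fum-1*, *aco-2*, *mdh-2*, *idh-1* and *idha-1*, by 0.47 to 0.67, which take in fumarase, mitochondrial aconitase and malate dehydrogenase. None of these 6 falls passed the test against unexposed nematodes. With that control *ogdh-1* stood at -0.38, *fum-1* at -0.30, *aco-2* at -0.43, *mdh-2* at -0.24, *idha-1* at -0.22 and *idh-1* at 0.35. The summed level of the 18 genes was 3871 to 4228 CPM with FLT, 3987 to 4118 CPM unexposed and 4806 to 5625 CPM with DMSO. The rise was *idhg-2*, a gamma type subunit of the NAD isocitrate dehydrogenase, at 37.1, 34.6 and 25.3 CPM against 18.4, 18.5 and 21.97 CPM with DMSO (log2 0.72, SE 0.15, adjusted p = 0.00112, edgeR). Unexposed nematodes stood at 34.4, 35.6 and 30.9 CPM for *idhg-2*, in the range of FLT and above DMSO. The germline sum given above was also lower with FLT at 24h, where 0 of 20 markers rose and 11 fell beside 9.39% of all genes, and its part in these results was not tested.

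With AZT at 72h 3 of 18 TCA cycle genes rose and 7 fell, where 27.2% of all genes rose and 21.6% fell, and the succinyl-CoA synthetase genes stood on both sides. This enzyme makes ATP or GTP from succinyl-CoA with an alpha subunit and 1 of 2 beta subunits. The alpha subunit *sucl-2* (WBGene00017759, chromosome III, 900138 to 901412) stood at 131, 134 and 143 CPM with AZT against 254, 244 and 239.9 CPM with DMSO (log2 -0.85, SE 0.15, adjusted p = 3.09e-05, edgeR). The other alpha gene, *sucl-1* (WBGene00007350, chromosome X, 14754026 to 14756081), stood at 135, 88.4 and 75.1 CPM against 57.1, 48.2 and 47.5 CPM (log2 0.96, SE 0.23, adjusted p = 0.000839, edgeR). Neither pair of groups overlapped. Of the beta genes, *sucg-1* fell by 1.25 (SE 0.27) and *suca-1* rose by 0.49 (SE 0.15). None of these genes passed the test with AZT at 72h against unexposed nematodes. With that control *sucl-2* stood at -0.13, *sucl-1* at 0.62, *sucg-1* at -0.58 and *suca-1* at 0.12. The ratio of *suca-1* to *sucg-1* per length was 0.330, 0.374 and 0.391 with DMSO at 72h and 2.15, 1.12 and 0.831 with AZT. It was 0.891, 0.652 and 0.743 in unexposed nematodes at 72h, above DMSO and overlapping AZT.

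**Figure D5:**
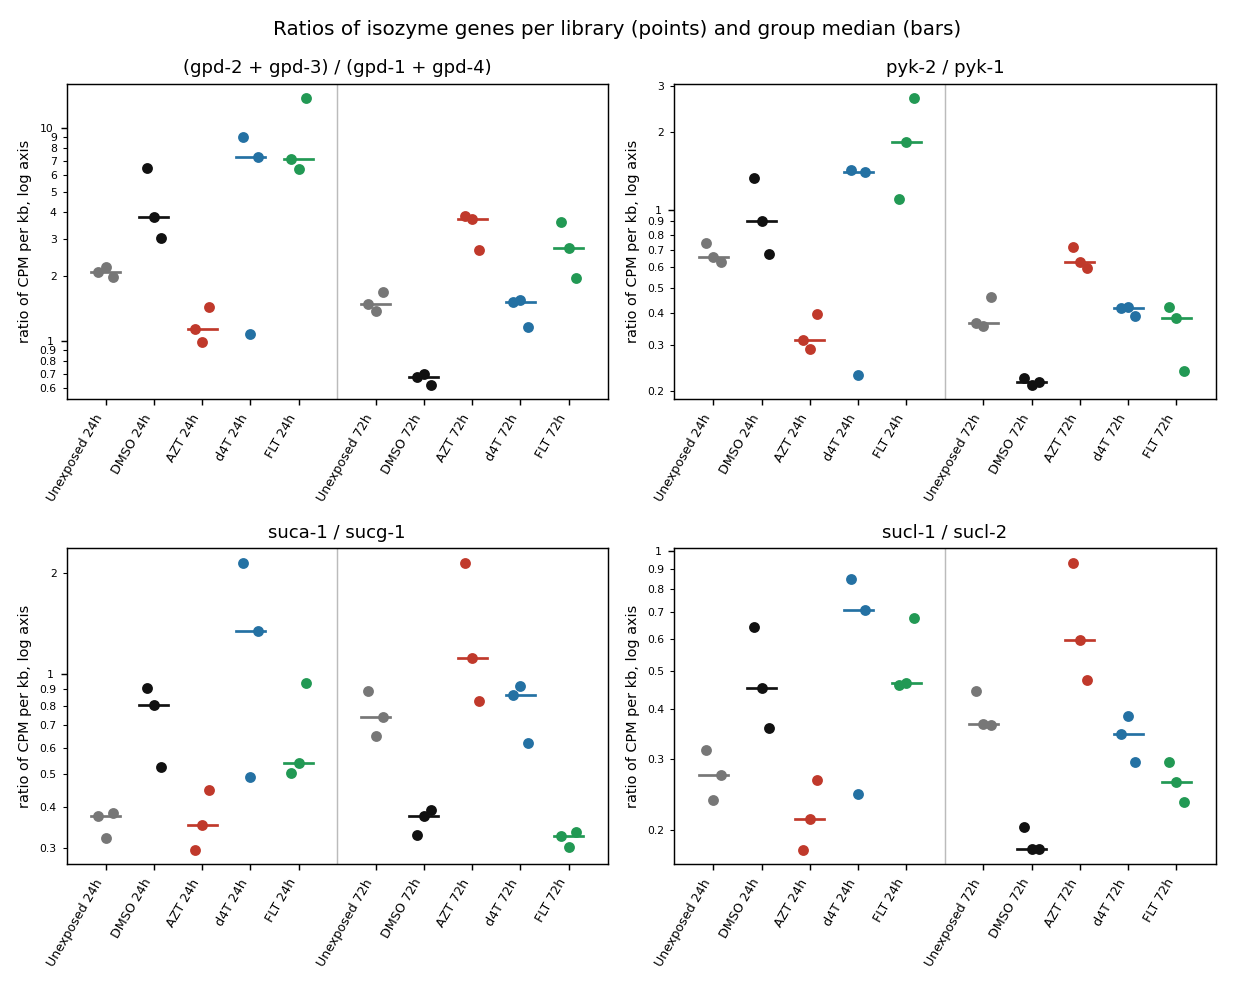
Ratio of CPM per kb of paired genes in each library (points, log axis) with the group median (bars), for glyceraldehyde-3-phosphate dehydrogenase, pyruvate kinase and the beta and alpha subunits of succinyl-CoA synthetase. In all 4 panels the AZT libraries lie below DMSO at 24h and above DMSO at 72h, and replicate 2 of d4T at 24h lies below its group.

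The ratio of *sucl-1* to *sucl-2* followed the same course, at 0.644, 0.452 and 0.359 with DMSO and 0.178, 0.213 and 0.266 with AZT at 24h, and at 0.203, 0.179 and 0.179 with DMSO and 0.932, 0.597 and 0.474 with AZT at 72h. In unexposed nematodes it was 0.317, 0.238 and 0.274 at 24h, below DMSO, and 0.446, 0.369 and 0.366 at 72h, between DMSO and AZT. With FLT at 72h the ratio of *suca-1* to *sucg-1* was 0.327, 0.302 and 0.335, which overlapped DMSO. These 4 ratios are given as descriptions, since the pairs were chosen with the values known. The NAD isocitrate dehydrogenase gene *idhg-1* fell with AZT at 72h from 223, 245 and 236 to 119.5, 147 and 153 CPM (log2 -0.75, SE 0.15, adjusted p = 0.000147, edgeR), beside 156, 179.9 and 159 CPM in unexposed nematodes.

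With d4T at 72h all 5 calls in the TCA cycle were falls, in *sucl-2*, *mdh-1*, *idha-1*, *idh-1* and *cts-1*, where 5.86% of all genes fell. Of these, *sucl-2* and *mdh-1* were called without any 1 of the 6 libraries, and *cts-1* was lost without each of them. *sucl-2* stood at 154, 142 and 153 CPM with d4T (log2 -0.72, SE 0.15, adjusted p = 0.000952, edgeR). *mdh-1*, the cytosolic malate dehydrogenase, stood at 332, 337 and 334 CPM against 506, 493 and 471 CPM with DMSO (log2 -0.55, SE 0.12, adjusted p = 0.00128, edgeR). *idha-1*, the alpha subunit of the NAD isocitrate dehydrogenase, stood at 105, 106 and 101 CPM against 155, 147 and 149 CPM (log2 -0.54, SE 0.12, adjusted p = 0.00221, edgeR). None of these groups overlapped. Unexposed nematodes at 72h stood at 139, 163 and 145 CPM for *sucl-2* and at 113, 112 and 104 CPM for *idha-1*, and against them 0 of the 44 genes rose or fell with d4T in edgeR or in DESeq2, where 0.206% of all genes were called in edgeR. Before adjustment 0 were higher and 6 lower with p under 0.05, and *sucl-2* stood at 0.01. *mdh-1* also fell with FLT at 72h, to 321, 301 and 379 CPM (log2 -0.55, SE 0.12, adjusted p = 0.00151, edgeR), as did *mdh-2* by 0.62 (SE 0.16).

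The solvent alone moved several of the same genes. DMSO against no addition at 24h raised 10 of the 44 genes and lowered 1, where 12.6% of all genes were called (9.01% higher and 3.56% lower). *gpd-2* rose from 116, 122 and 114 to 247, 235.2 and 206 CPM (log2 0.97, SE 0.15, adjusted p = 9.58e-05, edgeR). *idh-1*, the cytosolic NADP isocitrate dehydrogenase, rose from 365, 411 and 404 to 898, 754 and 551 CPM (log2 0.90, SE 0.15, adjusted p = 0.000165, edgeR). The DMSO libraries lay above all unexposed libraries for both genes. The other rises were *aco-1* at 1.31, *pck-2* at 1.07, *hxk-3* at 0.78, *gpd-3* at 0.74, *pck-1* at 0.68, *cts-1* at 0.62, *mdh-1* at 0.59 and *idhb-1* at 0.52. *idhg-2* fell by 0.78 (SE 0.15, adjusted p = 0.000623, edgeR).

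All genes that fell with AZT against DMSO at 24h are among these 10, except *pyk-2*. Both comparisons use the same 3 DMSO libraries, so the overlap is no independent result. Against unexposed nematodes, AZT at 24h called 0 of the 44 genes in edgeR, where 0.704% of all genes were called, and 6 in DESeq2. Before adjustment 18 were higher and 1 was lower with p under 0.05. FLT at 24h raised 5 and lowered 4 against unexposed nematodes, where 29.4% were called, and d4T at 24h raised 15 and lowered 1, where 32.2% were called. At 72h DMSO raised 5 genes against no addition and lowered 0, where 11.7% were called (5.71% higher and 6.01% lower). *sucl-2* rose from 139, 163 and 145 to 254, 244 and 239.9 CPM (log2 0.72, SE 0.15, adjusted p = 0.00083, edgeR) and *idh-1* from 289.9, 346 and 334 to 528, 534 and 495 CPM (log2 0.68, SE 0.15, adjusted p = 0.00191, edgeR), with *idha-1*, *cts-1* and *aldo-2* at 0.46, 0.49 and 0.71.

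These 5 genes also fell with d4T at 72h, a comparison that shares the DMSO libraries. With a replicate block 3 of the 5 calls of DMSO against no addition were kept, 0 to 2 genes were called when 1 library was left out (0 without Unexposed replicate 1), and with library totals 1 gene rose and 2 fell. More than 5 genes were called in DESeq2, with the compared groups fitted alone and at an adjusted p under 0.05. This count thus depended on the model in both directions. Against unexposed nematodes at 72h, AZT raised 4 genes and lowered 1, where 31.8% were called, and FLT raised 2 and lowered 2, where 12.5% were called. The genes called in the same direction against both controls were *gpd-3*, *aco-1* and *hxk-1* with AZT at 72h, *aldo-1* and *ldh-1* with FLT at 72h and *pdhb-1* and *dlat-1* with FLT at 24h.

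The 3 analogues were compared with each other at the same dose in 3 pairs at each of 2 times, with p-values adjusted over all genes within each pair. At 24h AZT was above FLT in 19 genes and below it in 7, where 40.5% of all genes were called (17.4% higher and 23.1% lower). All 4 pyruvate dehydrogenase genes were among the 19, with *dlat-1* at 284, 311 and 310.4 CPM with AZT and 179.9, 163 and 152 CPM with FLT (log2 0.87, SE 0.14, adjusted p = 3.84e-05, edgeR). *pyk-1* stood at 471, 501 and 421 CPM against 220.5, 179 and 158 CPM (log2 1.32, SE 0.21, adjusted p = 5.09e-05, edgeR). The 7 lower genes included *fbp-1*, at 169, 167 and 156 CPM with AZT and 209, 265 and 298 CPM with FLT (log2 -0.65, SE 0.14, adjusted p = 0.000433, edgeR), and *gpd-3* at -0.79 (SE 0.17). The groups did not overlap in any of these 4 genes.

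d4T at 24h was above FLT in 10 genes and below it in 0, where 5.83% were called (4.38% higher and 1.45% lower). Without FLT replicate 3, and also with the compared groups fitted alone, 0 genes were called. *ogdh-1* stood at 344, 398 and 296 CPM with d4T against 216, 208 and 184 CPM with FLT (log2 0.77, SE 0.15, adjusted p = 0.00161, edgeR), and *fum-1* at 193, 281 and 164 CPM against 141, 121 and 112 CPM (log2 0.77, SE 0.15, adjusted p = 0.00171, edgeR). AZT at 24h was below d4T in 10 genes and above it in 0, where 29.5% were called (9.49% higher and 20% lower). Fitted alone, these groups also gave 0 calls. *pck-2* stood at 478, 519.8 and 444 CPM with AZT and at 1655, 708 and 1369.7 CPM with d4T (log2 -1.37, SE 0.24, adjusted p = 0.00043, edgeR), and *aco-1* at -1.30 (SE 0.24), with the d4T libraries at 458, 167 and 422 CPM. Replicate 2 of d4T was the lowest of its group in both genes and still above all AZT libraries.

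Without replicate 2 of d4T at 24h these counts changed: 2 genes rose and 6 fell against DMSO, where 36.9% of all genes were called. AZT was then above d4T in 18 genes and below it in 12, where 61.9% were called, and d4T above FLT in 9 and below it in 2, where 17.4% were called. Among the genes then called against DMSO, *hxk-1* stood at -0.93, *gpd-1* at -0.89, *gpd-4* at -0.88, *sucg-1* at -0.74, *pdha-1* at -0.47, *tpi-1* at -0.34, *aldo-1* at 0.62 and *pck-2* at 0.64. The count of d4T against DMSO at 24h thus rested on this library.

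At 72h AZT was above d4T in 4 genes and below it in 0, where 12% of all genes were called (8.05% higher and 3.98% lower). *aldo-1* stood at 37.1, 24.9 and 25.5 CPM with AZT and at 13.8, 14.6 and 13.6 CPM with d4T (log2 1.06, SE 0.20, adjusted p = 0.000667, edgeR), and *pck-1* at 186, 137 and 111 CPM against 75.5, 70.8 and 74.3 CPM (log2 0.98, SE 0.19, adjusted p = 0.000765, edgeR). *gpd-3* and *gpd-2* were higher by 0.85 and 0.70. The AZT libraries lay above all d4T libraries for these genes, but 0 calls remained without AZT replicate 1, the highest library. The other 40 genes did not pass the test, with 95% intervals of the difference from -0.36 to 0.20 for *dlat-1*, from -0.44 to 0.16 for *sucl-2* and from -1.33 to 0.18 for *gpd-1*.

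FLT at 72h differed from both other analogues foremost in *aldo-1* and *ldh-1*. AZT was above FLT in 7 genes and below it in 8, where 40.5% of all genes were called (22.2% higher and 18.3% lower), and d4T above FLT in 2 and below it in 6, where 11.2% were called (5.76% higher and 5.43% lower). For *aldo-1* the log2 difference from FLT was -2.83 (SE 0.21, adjusted p = 6.62e-10, edgeR) with AZT and -3.89 (SE 0.22, adjusted p = 1.02e-11, edgeR) with d4T, and for *ldh-1* it was -1.93 (SE 0.17) and -2.35 (SE 0.17). d4T gave 47.1, 45.3 and 41.9 CPM for *ldh-1*, below every FLT library. In the other direction *suca-1* stood at 144, 111 and 109 CPM with AZT, 114.9, 111 and 98.7 CPM with d4T and 70.4, 55.2 and 60.4 CPM with FLT. It was higher than with FLT by 0.97 (SE 0.16, adjusted p = 2.85e-05, edgeR) and 0.80 (SE 0.15, adjusted p = 0.000444, edgeR). *aco-1* with AZT was above FLT by 1.08 (SE 0.24), and *idhb-1*, the beta subunit of the NAD isocitrate dehydrogenase, was above FLT by 0.52 (SE 0.13) with d4T, at 90.1, 88.1 and 77.6 CPM against 56.7, 57.6 and 64.4 CPM.

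For *gpd-1* and *gpd-4* no pair of analogues at 72h passed the test. The 95% interval of AZT against FLT ran from -1.005 to 0.50 for *gpd-1* and from -0.82 to 0.74 for *gpd-4*, and that of d4T against FLT from -0.43 to 1.08 and from -0.52 to 1.03. With library totals AZT at 72h was above FLT in 9 genes and below it in 6, and with relative log expression in 3 and 13. The same scalings gave 2 above and 3 below, and 1 above and 8 below, for d4T against FLT at 72h, and library totals gave 8 above and 1 below for d4T against FLT at 24h.

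Time alone also moved these genes. From 24h to 72h, 3 genes rose and 14 fell with DMSO, where 33.1% of all genes were called (13.9% higher and 19.2% lower), and 1 rose and 6 fell without addition, where 17.7% were called (8.75% higher and 8.94% lower). With DMSO *enol-1* rose from 401, 441 and 452 to 834, 812 and 747 CPM (log2 0.89, SE 0.20, adjusted p = 0.000708, edgeR) and *gpd-1* by 1.67 (SE 0.37), while *aco-1* fell by 1.77 (SE 0.25, adjusted p = 3.12e-06, edgeR). Without addition *idhb-1* rose from 63.3, 59.5 and 56.8 to 92.0, 81.6 and 83.3 CPM (log2 0.52, SE 0.13, adjusted p = 0.00272, edgeR). *idhg-2* fell from 34.4, 35.6 and 30.9 to 16.3, 16.5 and 17.9 CPM (log2 -0.996, SE 0.15, adjusted p = 1.67e-05, edgeR), and *pdhb-1* from 146, 154 and 158 to 89.5, 96.3 and 82.3 CPM (log2 -0.77, SE 0.14, adjusted p = 9.56e-05, edgeR). *aco-1*, at 136, 116 and 111 CPM at 24h and 110.5, 92.9 and 97.6 CPM at 72h, did not pass the test without addition.

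The effect of an analogue itself differed between the times in some genes, by the interaction term. For AZT the effect was higher at 72h in 10 genes and lower in 13, where 53% of all genes differed (29.3% higher and 23.7% lower), with the smallest adjusted p in *sucl-2* at -1.36 (SE 0.21, adjusted p = 7.03e-06, edgeR) and *pck-1* at 1.72 (SE 0.27, adjusted p = 8.78e-06, edgeR). For d4T it was higher in 0 and lower in 3, where 8.01% differed (4.93% higher and 3.08% lower), and *aldo-2* stood at -1.18 (SE 0.27, adjusted p = 0.00324, edgeR). Without replicate 2 of d4T at 24h it was higher in 0 and lower in 5, where 14.8% differed (8.66% higher and 6.1% lower), and *aldo-1* at -1.13 and *fbp-1* at -0.79 were added to the 3. For FLT it was higher in 5 and lower in 0, where 9.73% differed (6.17% higher and 3.56% lower), with *aldo-1* and *ldh-1* first.

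Genes next to these pathways were counted from 4 further lists, beside shares of all genes called of 10.2% with AZT, 6.31% with d4T and 15.1% with FLT at 24h and of 48.9%, 11.7% and 8.06% at 72h. Of 5 succinate dehydrogenase genes, which link the TCA cycle to the respiratory chain, AZT at 72h raised 1 and lowered 3, d4T at 72h raised 1 and lowered 3 and FLT at 72h raised 0 and lowered 2, while 0 were called with any analogue at 24h. The iron-sulphur subunit *sdhb-1* fell by 0.97 (SE 0.12) with AZT and by 1.15 (SE 0.12) with d4T, *sdha-1* of the flavoprotein rose by 0.70 (SE 0.13) and 0.60 (SE 0.13), and *mev-1*, a membrane subunit, fell by 0.63 (SE 0.13) with FLT. Tests of analogues against unexposed nematodes are not given for these 4 lists. At 72h mean *sdhb-1* was 89.5 CPM unexposed, 87.5 with AZT, 77.3 with d4T and 171 with DMSO. Mean *sdha-1* was 100 CPM unexposed, 111 with AZT, 103 with d4T and 68.3 with DMSO. Mean *mev-1* was 48.4 CPM unexposed, 44.8 with FLT and 69.6 with DMSO. Of 10 genes for the entry and exit of pyruvate and C4 acids, AZT at 24h raised 0 and lowered 1, and the counts were 0 and 1 with d4T and 0 and 4 with FLT. At 72h these counts were 0 and 3, 0 and 2, and 1 and 1. *pyc-1*, the pyruvate carboxylase, fell with FLT at 24h by 1.42 (SE 0.17) and with d4T at 24h by 0.78 (SE 0.17), and *icl-1*, the glyoxylate cycle enzyme, fell with AZT at 24h by 1.88 (SE 0.27). Mean *pyc-1* at 24h was 277 CPM unexposed, 187 with FLT, 294 with d4T and 503 with DMSO. *icl-1* ran from 157 to 208 CPM unexposed, from 246 to 282 CPM with AZT and from 499 to 1266 CPM with DMSO. Every AZT library thus lay above the unexposed libraries for *icl-1*. At 72h the mitochondrial pyruvate carrier gene *mpc-2* fell by 1.36 (SE 0.23) with d4T and by 0.87 (SE 0.23) with FLT, *dlat-2* fell by 1.11 (SE 0.15) with AZT, and *ogdh-2* rose by 0.50 (SE 0.13) with FLT. Mean *mpc-2* was then 23.1 CPM unexposed, 18.7 with d4T, 26.4 with FLT and 48.3 with DMSO. Mean *dlat-2* was 107 CPM unexposed, 77.8 with AZT and 168 with DMSO, and mean *ogdh-2* 108 CPM unexposed, 126 with FLT and 89.7 with DMSO.

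Of 5 pentose phosphate genes 0 were called at 24h and 1 fell with AZT, 2 with d4T and 0 with FLT at 72h. *rpia-1*, the ribose phosphate isomerase, fell by 1.12 (SE 0.19) with AZT and the transaldolase *tald-1* by 0.81 (SE 0.15) with d4T. Mean *rpia-1* at 72h was 78.7 CPM unexposed, 62.3 with AZT and 135 with DMSO. Mean *tald-1* was 52.4 CPM unexposed, 56.4 with d4T and 98.7 with DMSO. Of 11 glycogen and trehalose genes tested, AZT raised 0 and lowered 3 at 24h and raised 5 and lowered 1 at 72h. The trehalose synthase gene *tps-1* fell by 1.24 (SE 0.24) at 24h and rose by 0.78 (SE 0.24) at 72h, and *tps-2* fell by 0.87 (SE 0.20) and rose by 0.90 (SE 0.20). Mean *tps-1* was 18.6 CPM unexposed, 19.7 with AZT and 46.6 with DMSO at 24h, and 50.7, 36.6 and 21.4 CPM at 72h. Mean *tps-2* in the same order was 45.3, 36.8 and 67.1 CPM at 24h and 68.1, 55.6 and 29.9 CPM at 72h. At 72h both genes thus stood lower with AZT than without exposure. *gyg-2*, a glycogenin gene, fell by 1.84 (SE 0.35) with AZT at 72h, where its mean was 156 CPM, beside 315 unexposed and 557 with DMSO. With d4T at 24h 1 of the 11 rose, *gyg-1* at 0.82 (SE 0.18), and with FLT 0 rose and 3 fell at 24h, with the glycogen synthase *gsy-1* at -0.95 (SE 0.23), and 2 rose and 0 fell at 72h, with *gyg-1* at 0.81 (SE 0.19). Unexposed nematodes averaged 14.0 CPM at 24h and 11.5 CPM at 72h for *gyg-1*, beside 29.2 CPM with d4T at 24h and 19.1 CPM with FLT at 72h. For *gsy-1* at 24h they averaged 153 CPM, beside 106 CPM with FLT.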

How the data were processed

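Whole-worm RNA was sequenced in 30 libraries. The authors trimmed reads with Trimmomatic 0.32, aligned them with TopHat2 2.0.8 over Bowtie2 2.1.0 and counted them per gene of Ensembl release 75 with HTSeq; the deposited values are these raw counts. The 5 closing entries of each file (reads without a unique gene) held 10.5 to 26.5% of its reads and were left out. The strand setting is not given in the sources used here.

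Counts of 46726 genes were filtered with edgeR 4.0.16 in R 4.3.3 (at least 10 counts in enough libraries and 15 in all), given TMM factors and fitted over 10 groups with the robust quasi-likelihood test (20 residual degrees of freedom), and p-values were adjusted by the Benjamini-Hochberg method over 16048 genes at 0.01. Genes were named and placed with Ensembl release 115 (WBcel235). DESeq2 1.42.0, other scalings, no filter, a replicate block, fits of only the groups in a comparison, Unexposed in place of DMSO and 1 library left out were alternatives. The genes and lists were chosen with earlier results of these data known. Values of every library are given for the called genes with the smallest adjusted p, up to 4 in each direction for an analogue against DMSO and up to 2 otherwise, and some further genes were shown after their values were seen. Replicates were described as biological triplicates, and p-values measure the spread between these cultures. Totals of counts limit precision at low levels, as for *pfk-1.2*.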

Additional observations from a re-analysis of the deposited data

Results flagged for a closer look

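The effect of an analogue, as its difference from DMSO, changed between 24h and 72h in 31 instances by the interaction term of the same edgeR fit (adjusted p under 0.01), where 53%, 8.01% and 9.73% of all genes did so for AZT, d4T and FLT. All values are the log2 effect at 72h minus that at 24h, and they share the DMSO libraries, which changed between the times themselves.

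For AZT the effect was higher at 72h in 10 genes: *aco-1* at 2.18, *pyk-2* at 1.73, *pck-1* at 1.72, *pck-2* at 1.66, *sucl-1* at 1.59, *gpd-3* at 1.53, *gpd-2* at 1.38, *hxk-3* at 0.86, *suca-1* at 0.78 and *idh-2* at 0.56. It was lower at 72h in 13 genes: *gpd-1* at -2.73, *gpd-4* at -2.66, *sucg-1* at -2.002, *hxk-1* at -1.81, *enol-1* at -1.50, *sucl-2* at -1.36, *pyk-1* at -1.35, *mdh-2* at -1.11, *pdha-1* at -1.102, *idhg-1* at -1.08, *pfk-1.1* at -0.83, *idha-1* at -0.68 and *dlat-1* at -0.63. With library totals 15 were higher and 10 lower.

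For d4T the effect was lower at 72h in *aldo-2* at -1.18, *sucl-2* at -0.87 and *idha-1* at -0.66, and with library totals 1 gene was higher and 0 lower. Without replicate 2 of d4T at 24h 0 were higher and 5 lower, *aldo-1* at -1.13 and *fbp-1* at -0.79 besides these 3. For FLT it was higher at 72h in *aldo-1* at 3.34, *ldh-1* at 2.25, *ogdh-1* at 1.67, *hxk-3* at 0.90 and *fum-1* at 0.80.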

How the results depend on the processing

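Of the 202 calls of the 44 genes over 19 comparisons, 71 held under every alternative run and 11 changed sign. Every change of sign came with unexposed nematodes as the control, with no value past the threshold there. In place of their falls with AZT at 24h, *hxk-3* stood at 0.18, *gpd-2* at 0.081, *pck-2* at 0.083, *aco-1* at 0.22 and *idh-1* at 0.26. With FLT at 24h *idh-1* stood at 0.35 and *idhg-2* at -0.058, with AZT at 72h *idh-1* at 0.070 and *idha-1* at 0.015, and with d4T at 72h *idh-1* at 0.032 and *sucl-2* at 0.0055. The cause was not tested.

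With that control the number of genes called was 0 for AZT at 24h, 16 for d4T at 24h, 5 for AZT at 72h, 0 for d4T at 72h and 4 for FLT at 72h. At an adjusted p under 0.05 it was 14, 1 and 20 for AZT, d4T and FLT at 24h, 20 and 13 for d4T and FLT at 72h, 18 for AZT against d4T and 21 for d4T against FLT at 24h, 9 for AZT against d4T and 13 for d4T against FLT at 72h, 12 for DMSO against Unexposed at 72h, 11 and 12 for the change of the d4T and FLT effects with time, and 12 for time without addition.

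With the compared groups fitted alone the number was 16 for AZT and 4 for FLT at 24h, 29 for d4T at 72h, 0 for AZT against d4T and 0 for d4T against FLT at 24h, 7 for AZT against d4T at 72h, 19 and 26 for DMSO against Unexposed at 24h and 72h, 0 and 8 for the change of the d4T and FLT effects, and 20 for time without addition. In DESeq2 it was 19 for d4T at 72h, 24 and 14 for d4T against FLT at 24h and 72h, 10 for DMSO against Unexposed at 72h, and 13 and 10 for the change of the d4T and FLT effects. With library totals it was 4 for d4T at 72h, 5 for d4T against FLT at 72h, 3 for DMSO against Unexposed at 72h and 1 for the change of the d4T effect, and without the filter 3 for FLT at 72h, 2 for DMSO against Unexposed at 72h and 1 for the change of the d4T effect. The share of all genes called is not given for these settings, nor for an adjusted p under 0.05. These counts can thus be set only beside each other, not beside a share of all genes.

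With 1 library left out the number ran from 1 to 8, 0 to 8 and 4 to 15 for AZT, d4T and FLT at 24h, and from 15 to 18, 2 to 5 and 3 to 8 at 72h. It ran from 2 to 30 for AZT against d4T, 17 to 25 for AZT against FLT and 0 to 18 for d4T against FLT at 24h, and from 0 to 5, 8 to 13 and 4 to 7 at 72h. It ran from 7 to 13 and 0 to 2 for DMSO against Unexposed at 24h and 72h, 19 to 22, 0 to 6 and 3 to 6 for the change of the AZT, d4T and FLT effects, 10 to 17 for time with DMSO and 3 to 6 for time without addition. Leaving out d4T replicate 2 at 24h gave the 8 and the 30, AZT at 24h had 1 call without DMSO replicate 1 or 2 or AZT replicate 1 or 2, and FLT at 24h had 4 without DMSO replicate 2 and 6 without FLT replicate 3. d4T at 72h fell to 5 or fewer without any library and FLT at 72h to 3 or 4 without any but FLT replicate 3. d4T against FLT at 24h had 0 without FLT replicate 3, AZT against d4T at 72h 0 without AZT replicate 1, and AZT against FLT at 72h 8 and 9 without AZT replicates 1 and 2.

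Replicate numbers did not pair the libraries: deviations of libraries with the same number correlated at -0.44 to 0.55 (median 0.008), and 19 of 135 such pairs exceeded 0.1. With the number as a block in the replicate fit, 12 of the 202 calls were lost and DMSO against Unexposed at 72h kept 3 calls. All groups have 3 libraries, and the lane, the DMSO libraries and the tissue composition of whole animals limit every comparison above.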
